A study of Mus musculus with 18 samples.

Results

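Expression of 7 genes of the Fc gamma receptor system was measured in whole B16F10 tumors, a subcutaneous melanoma model grown from 1 cell line, after intratumoral (IT) injection of the STING agonist CDN2 (named CL656 in the sample titles), free or loaded into extracellular vesicles (EVs). The genes were taken by name: the activating receptors Fcgr1, Fcgr3 and Fcgr4, the inhibitory receptor Fcgr2b, the adaptors Fcer1g and Tyrobp, and the kinase Syk. All 7 were found among the 50600 genes of the deposited table and all 7 passed the filter on low counts, which kept 17110 genes.

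The 18 tumors formed 9 groups of 2, in C57BL/6 mice that were female and 5 to 6 weeks old when bought, with no genetic change named. After 1 dose the groups were PBS, unloaded EVs, exoCDN2 (0.1 µg of CDN2 in EVs), CDN2 (20 µg) and CDN2 (100 µg). With a second dose 3 days later they were PBS, exoCDN2 (0.1 µg), CDN2 (20 µg) and a pair of CDN2 tumors whose labels give no amount. Tumors were collected 24 h after the last dose. EVs came from HEK293 cells that overexpress the membrane protein PTGFRN, and the unloaded EV tumors analysed here had 1 dose, so an EV control for 2 doses was not analysed here. RNA came from the whole tumor, and no cells were sorted. Where a level rose, more cells of a type and more RNA per cell cannot be told apart.

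Fc gamma receptors let phagocytes and NK cells read antibody-coated targets. Activating receptors pass the signal through the ITAM of a shared adaptor, the Fc receptor gamma chain encoded by Fcer1g, to which the kinase SYK binds once the ITAM is phosphorylated. Tyrobp encodes DAP12, an ITAM adaptor of related myeloid and NK receptors. FcγRIIB, encoded by Fcgr2b, carries an inhibitory ITIM instead and recruits the phosphatase SHIP1, so the balance of activating and inhibitory receptors sets the threshold for phagocytosis and cytotoxicity. Interferons are textbook inducers of the high-affinity receptor FcγRI, encoded by Fcgr1.

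Of the 7 genes, 4 lie on chromosome 1 of GRCm38, with Fcgr2b (chr1:170958617-170976547, minus strand), Fcgr4 (chr1:171018920-171029761, plus strand) and Fcgr3 (chr1:171051174-171064935, minus strand) inside 106 kb and Fcer1g (chr1:171229572-171234365, minus strand) at the far end of a span of 276 kb from Fcgr2b. Fcgr1 lies apart at chr3:96282909-96293969 (minus strand), Tyrobp at chr7:30413760-30417585 (plus strand) and Syk at chr13:52583173-52648792 (plus strand).

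Promoter sequences of the 4 receptors are shown because these genes differed in how far their levels moved. Each is the 250 bases before the RefSeq start site (GRCm38.p6), 5′ to 3′ on the gene's strand, with matches to 3 motifs in capitals: the interferon gamma element GAS (TTCNNNGAA), the core of the interferon element ISRE (GAAANN followed by GAAA) and the Ets core GAGGAA, which reads TTCCTC on the other strand. Both strands were searched. The positions are chr3:96293970-96294219 for Fcgr1, chr1:171018676-171018925 for Fcgr4, chr1:171059404-171059653 for the first of the Fcgr3 start sites and chr1:170976072-170976321 for Fcgr2b.
Fcgr1: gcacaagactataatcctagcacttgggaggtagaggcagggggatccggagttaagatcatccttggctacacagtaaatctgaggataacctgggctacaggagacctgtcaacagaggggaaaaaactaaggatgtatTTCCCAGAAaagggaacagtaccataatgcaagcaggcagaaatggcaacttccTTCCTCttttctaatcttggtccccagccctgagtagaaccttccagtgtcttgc
Fcgr4: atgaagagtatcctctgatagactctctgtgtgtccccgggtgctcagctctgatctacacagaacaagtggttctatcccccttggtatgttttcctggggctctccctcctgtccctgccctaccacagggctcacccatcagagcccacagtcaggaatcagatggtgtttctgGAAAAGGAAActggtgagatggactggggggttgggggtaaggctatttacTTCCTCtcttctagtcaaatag
Fcgr3: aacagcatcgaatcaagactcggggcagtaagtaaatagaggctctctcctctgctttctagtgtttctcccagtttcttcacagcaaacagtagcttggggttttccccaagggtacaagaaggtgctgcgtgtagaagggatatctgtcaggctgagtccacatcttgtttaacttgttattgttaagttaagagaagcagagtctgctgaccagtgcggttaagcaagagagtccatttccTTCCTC
Fcgr2b: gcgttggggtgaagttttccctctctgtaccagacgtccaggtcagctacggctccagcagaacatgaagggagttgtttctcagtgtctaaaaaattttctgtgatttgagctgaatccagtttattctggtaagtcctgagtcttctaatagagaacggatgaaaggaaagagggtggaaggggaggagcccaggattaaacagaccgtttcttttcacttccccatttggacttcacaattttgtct

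The Fcgr1 window holds TTCCCAGAA, a match to GAS, at positions -109 to -101 from the start site and an Ets core at -55 to -50. The Fcgr4 window holds GAAAAGGAAA, a match to the ISRE core, at -73 to -64 and an Ets core at -22 to -17. In Fcgr3 only an Ets core was found, at -6 to -1, and in Fcgr2b and Fcer1g none of these motifs was found. Of 27025 mouse promoter windows of the same length, 7.18% hold GAS, 3.04% the ISRE core and 23.1% the Ets core, and the motifs do not overlap each other in these windows. Such a match describes the letters and is not evidence of a bound site. Promoter windows were matched for 6 of the 7 genes, without Tyrobp.

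Levels are given as TMM-normalised CPM divided by the length of the gene's exons in kb (CPM per kb), so that genes can be compared. Over the 18 tumors the median level was 19.1 for Fcer1g, 17.8 for Tyrobp, 15.8 for Fcgr4, 9.09 for Fcgr3, 4.86 for Fcgr1, 3.78 for Fcgr2b and 1.33 for Syk. Neighbours in this order overlapped in their ranges over tumors. With the longest coding transcript as the length, which was tried after the data were seen, the median of Fcgr2b was 6.18 and stood above that of Fcgr1. Between genes the order of Fcgr1 and Fcgr2b is therefore not settled, whereas a change of either gene between groups does not depend on the length.

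**Figure D1:**
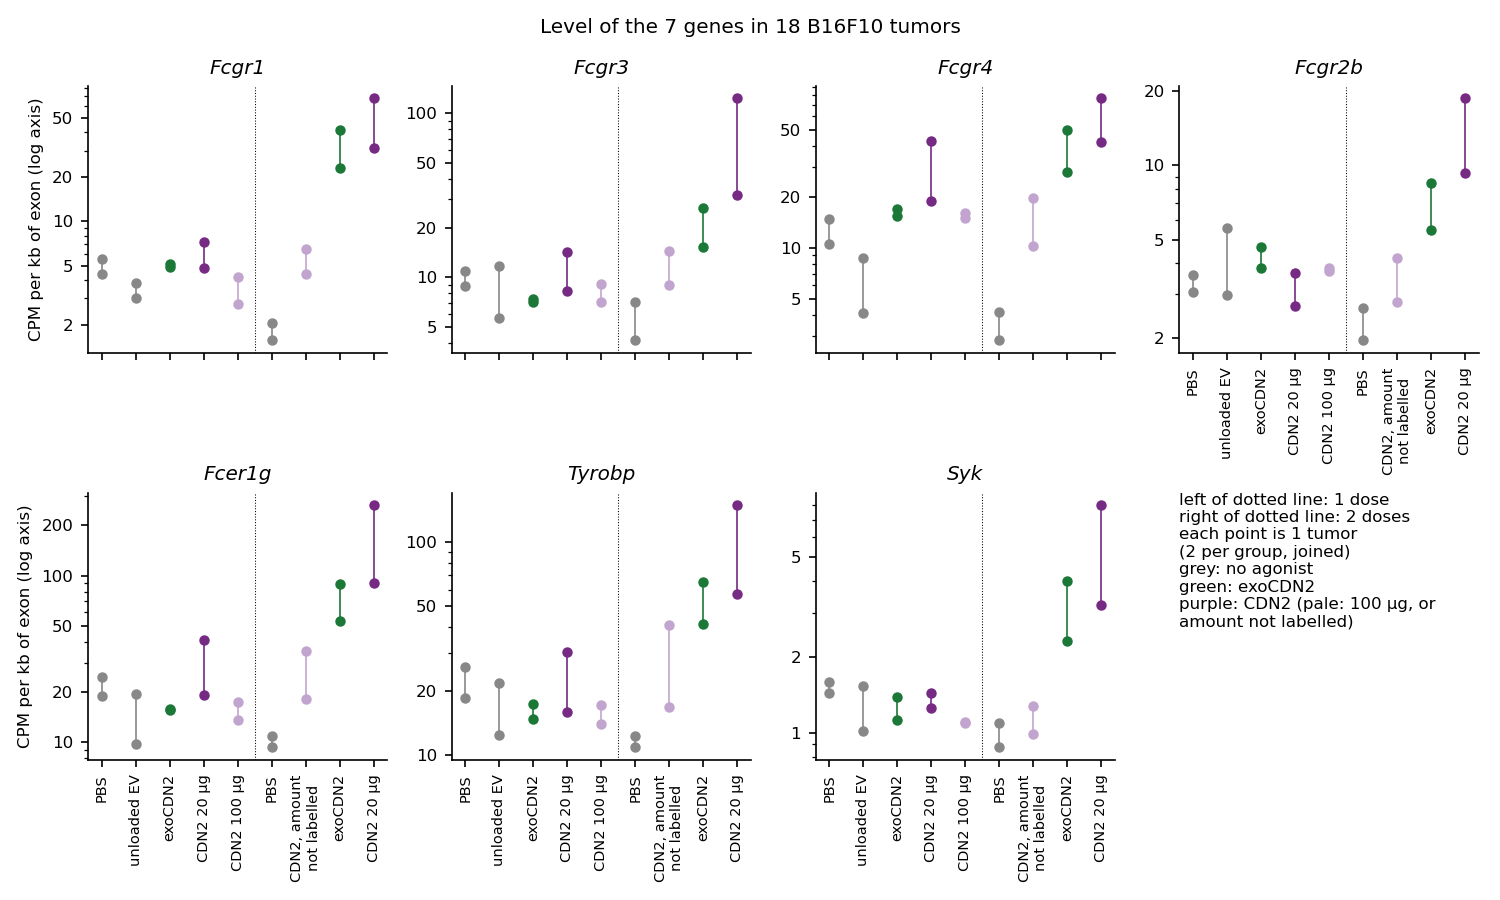
Level of each of the 7 genes (CPM per kb of exon, log axis) in 18 tumors, with 1 point per tumor and the 2 tumors of a group joined. The tumors given 2 doses of exoCDN2 or CDN2 (20 µg) lie above the PBS tumors of 2 doses for every gene, while after 1 dose most groups overlap or lie close together.

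After 2 doses, all 7 genes rose with exoCDN2 and all 7 rose with CDN2 (20 µg) against PBS. Fcgr1 had the largest fold change under both, and Fcgr2b and Syk had the 2 smallest. A gene was called at an edgeR quasi-likelihood adjusted p under 0.05 and a ratio over 2. Of all genes tested, 11.2% were called with exoCDN2 (8.83% higher) and 30.4% with CDN2 (19.9% higher). Both comparisons use the same 2 PBS tumors.

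Fcgr1, which encodes the receptor that binds monomeric IgG, stood at 1.56 and 2.06 CPM per kb in the PBS tumors of 2 doses, at 23.0 and 41.4 with exoCDN2 and at 31.5 and 68.0 with CDN2 (20 µg). The 4 treated tumors were thus far above both controls and overlapped between the treatments. On the log2 scale Fcgr1 was 4.15 ± 0.42 (SE) higher with exoCDN2 (17.8-fold, adjusted p = 1.6e-05) and 4.78 ± 0.43 higher with CDN2 (27.5-fold, adjusted p = 5.2e-06).

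Fcgr4, whose product is an activating receptor for mouse IgG2a and IgG2b, was measured at 2.82 and 4.14 CPM per kb with PBS, 28.1 and 49.8 with exoCDN2, and 42.2 and 77.0 with CDN2. Here too the treatments overlapped with each other and not with PBS. The log2 difference from PBS was 3.48 ± 0.51 with exoCDN2 (11.2-fold, adjusted p = 0.00036) and 4.09 ± 0.52 with CDN2 (17.1-fold, adjusted p = 6.4e-05).

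Fcgr3, encoding the low-affinity activating receptor of macrophages, neutrophils and NK cells, had levels of 4.12 and 7.08 CPM per kb with PBS, 15.4 and 26.4 with exoCDN2 and 32.0 and 124 with CDN2. Both CDN2 tumors lay above both exoCDN2 tumors, as they did for Fcgr2b and Fcer1g among the 7 genes. Its log2 difference from PBS was 1.90 ± 0.54 with exoCDN2 (adjusted p = 0.03) and 3.80 ± 0.58 with CDN2 (adjusted p = 0.00024). The call with exoCDN2 was lost when the 4 PBS tumors of both dose numbers were pooled (log2 difference 1.44, adjusted p = 0.051).

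The inhibitory receptor Fcgr2b had 1.95 and 2.65 CPM per kb with PBS, 5.45 and 8.48 with exoCDN2 and 9.28 and 18.7 with CDN2. Its rise was the smallest of the 4 receptors under either treatment, at 1.60 ± 0.36 on the log2 scale with exoCDN2 (3.03-fold, adjusted p = 0.0083) and 2.60 ± 0.38 with CDN2 (6.08-fold, adjusted p = 0.00016).

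Fcer1g was at 9.27 and 10.8 CPM per kb with PBS, 53.1 and 88.5 with exoCDN2 and 90.5 and 265 with CDN2, which made it the most abundant of the 7 transcripts in each of these 4 treated tumors. Its log2 difference from PBS was 2.82 ± 0.53 with exoCDN2 (adjusted p = 0.0022) and 4.14 ± 0.56 with CDN2 (adjusted p = 9.7e-05). Tyrobp went from 10.8 and 12.2 CPM per kb to 41.3 and 65.2 with exoCDN2 and to 57.3 and 150 with CDN2. The test gave log2 differences of 2.21 ± 0.50 (adjusted p = 0.008) and 3.16 ± 0.52 (adjusted p = 0.00037).

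Syk was the least abundant, with 0.872 and 1.09 CPM per kb in PBS tumors, 2.32 and 4.01 with exoCDN2 and 3.20 and 8.02 with CDN2. It rose by 1.69 ± 0.37 on the log2 scale with exoCDN2 (3.22-fold, adjusted p = 0.0063) and by 2.51 ± 0.38 with CDN2 (5.69-fold, adjusted p = 0.00021). For all 7 genes the lower of the 2 treated tumors was above the higher PBS tumor. The share of all genes with such a separation was not counted, here or for other pairs of groups, so it is only a description.

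The exoCDN2 calls leaned on single tumors more than the CDN2 calls did. Leaving out exoCDN2 replicate 1 of 2 doses left 3 of the 7 genes called, Fcgr1, Fcgr4 and Fcer1g. Leaving out PBS replicate 1 or 2 of 2 doses left 5 and 4. With CDN2 (20 µg) all 7 stayed called whichever tumor was left out, but their size depended on CDN2 replicate 1. Without it the log2 difference was 2.50 for Fcgr3, 3.16 for Fcer1g, 2.30 for Tyrobp, 1.69 for Syk, 4.11 for Fcgr1, 3.59 for Fcgr4 and 2.00 for Fcgr2b. Without CDN2 replicate 2 that of Fcgr3 was 4.44.

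**Figure D2:**
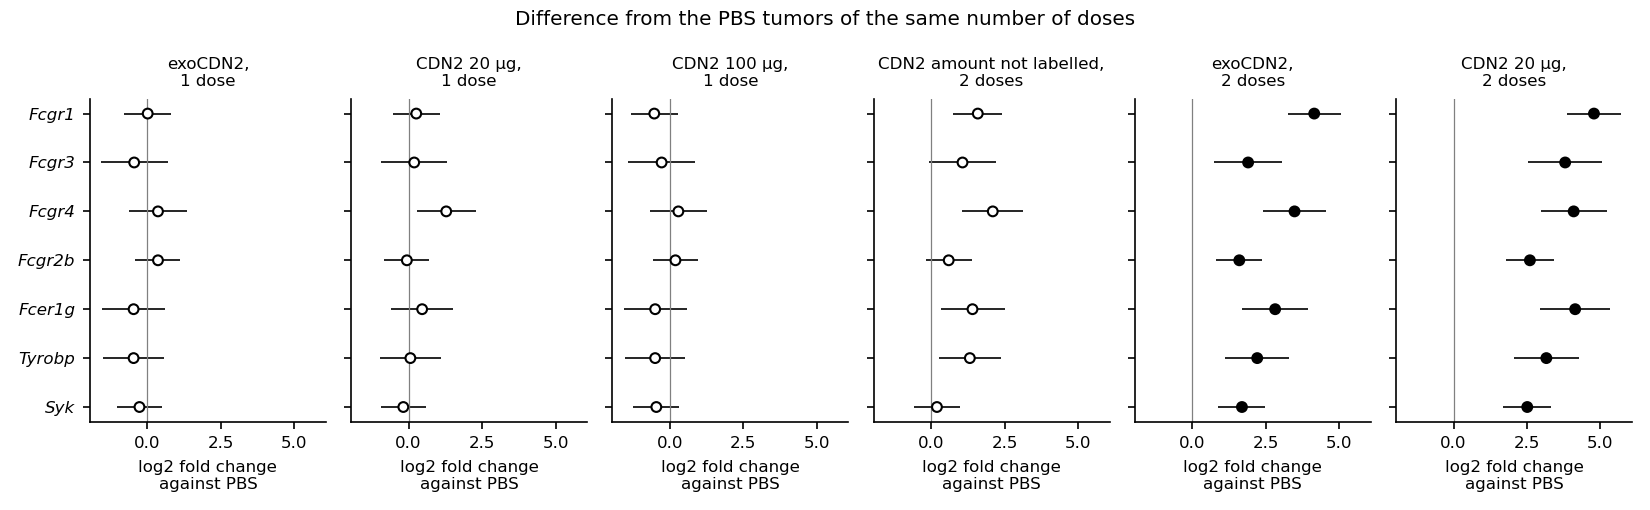
Log2 fold change of each gene against the PBS tumors of the same number of doses, with the 95% confidence interval of the edgeR fit; filled points were called. The 1-dose panels lie around 0 with open points, and the panels for 2 doses of exoCDN2 and CDN2 (20 µg) hold filled points to the right of 0.

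After 1 dose, none of the 7 genes was called against PBS with unloaded EVs (0 of all genes tested called, smallest adjusted p 0.23, 515 genes at an unadjusted p under 0.05), exoCDN2 (2.81% of all genes called), CDN2 (20 µg) (3.26%) or CDN2 (100 µg) (2.50%). For the 7 genes the unadjusted p was also above 0.05 in all of these comparisons, with the exception of Fcgr4 with CDN2 (20 µg). DESeq2 called none of the 7 in these 4 comparisons either. Fcgr4 was measured at 10.5 and 14.8 CPM per kb with PBS, 4.11 and 8.66 with unloaded EVs, 15.5 and 17.0 with exoCDN2, 19.0 and 42.8 with CDN2 (20 µg) and 14.9 and 16.1 with CDN2 (100 µg). All 6 agonist-treated tumors were above both PBS tumors and both EV tumors. The margin was small, at 14.9 in a CDN2 (100 µg) tumor against 14.8 in a PBS tumor. The log2 difference from PBS was 1.28 ± 0.46 with CDN2 (20 µg) (unadjusted p = 0.015, edgeR adjusted p = 0.19), 0.36 ± 0.46 with exoCDN2 (adjusted p = 0.82) and 0.29 ± 0.46 with CDN2 (100 µg) (adjusted p = 0.91). The value with CDN2 (20 µg) was 0.58 without CDN2 replicate 2 and 1.77 without replicate 1, and against the 4 PBS tumors pooled it was called at 1.93 (adjusted p = 0.043).

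For the other 6 genes the agonist-treated tumors were not all on one side of the controls after 1 dose. Fcgr1 ranged from 3.01 to 5.59 CPM per kb over the PBS and EV tumors and from 2.76 to 7.20 over the 6 agonist-treated tumors. Fcgr2b ranged from 2.99 to 5.57 and from 2.69 to 4.66 in the same sets, and Fcer1g from 9.74 to 24.6 and from 13.5 to 40.9, so the ranges overlapped for each of these genes. The genome-wide response to 1 dose was nonetheless present. Trim21, an interferon-induced cytosolic receptor for the antibody Fc part, was at 5.38 and 5.89 CPM per kb with PBS, 42.9 and 47.4 with exoCDN2 and 31.3 and 37.3 with CDN2 (20 µg), and was called higher in both (log2 differences 3.00 ± 0.19 and 2.61 ± 0.19, edgeR adjusted p = 2.2e-06 and 5.3e-06).

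The design also allows the change from 1 to 2 doses to be tested relative to the same change in PBS. With exoCDN2, 5 of the 7 genes were called higher after 2 doses by this test (6.69% of all genes were called, 5.15% higher): Fcgr1 by 4.14 ± 0.55 on the log2 scale, Fcer1g by 3.29 ± 0.71, Fcgr4 by 3.12 ± 0.66, Tyrobp by 2.67 ± 0.69 and Syk by 1.95 ± 0.51 (edgeR adjusted p from 0.00062 to 0.035). Fcgr3 (2.35 ± 0.76, adjusted p = 0.082) and Fcgr2b (1.24 ± 0.51, adjusted p = 0.18) were not called. With CDN2 (20 µg) all 7 were called (15.7% of all genes, 10.9% higher), from 2.67 ± 0.51 for Fcgr2b to 4.52 ± 0.55 for Fcgr1. Leaving out single tumors left 1 to 5 calls with exoCDN2, where 1 remained without exoCDN2 replicate 1 of either dose number, PBS replicate 2 of either dose number, and 5 to 7 with CDN2. Fcgr1 kept its call in each of these fits. Without CDN2 (20 µg) replicate 1 of 2 doses the CDN2 values were 3.83 for Fcgr1, 2.69 for Fcer1g, 2.30 for Fcgr3, 2.23 for Tyrobp, 2.05 for Fcgr2b and 1.86 for Syk.

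Part of this comparison rests on the PBS tumors, which were lower after 2 doses than after 1 in all 7 genes. Over all genes tested the median log2 difference between these PBS tumors was 0.01. Fcgr1 went from 4.41 and 5.59 to 1.56 and 2.06 CPM per kb and Fcgr4 from 10.5 and 14.8 to 2.82 and 4.14, with no overlap between the pairs. By edgeR none of the 7 was called (1.27% of all genes were, 1.22% lower), with log2 differences of -1.47 ± 0.38 for Fcgr1 (adjusted p = 0.1) and -1.86 ± 0.48 for Fcgr4 (adjusted p = 0.097), both of which DESeq2 did call. Against all 4 PBS tumors pooled, the log2 difference was 3.24 for Fcgr1 and 2.27 for Fcgr4 with 2 doses of exoCDN2 and 3.87 and 2.88 with CDN2, all still called. From 1 to 2 doses of PBS the pan-leukocyte sum went from 23.0 and 26.7 to 12.1 and 14.1 CPM per kb, the macrophage sum from 223 and 286 to 116 and 120 and the sum of 4 T cell markers from 1.56 and 2.03 to 0.231 and 0.402, with Cd3e called lower. The part of these cell types in the change of the 7 genes was not tested.

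exoCDN2 carried 0.1 µg of CDN2 against 20 µg of free CDN2, and the tumors given either can be compared directly. After 1 dose none of the 7 genes was called between them (0.240% of all genes were), with intervals of the log2 difference from -1.91 to 0.06 for Fcgr4 and from -1.05 to 0.55 for Fcgr1. The Fcgr4 difference of -0.93 was -0.23 without CDN2 (20 µg) replicate 2 and -1.38 without replicate 1. After 2 doses, 2 of the 7 were called, both lower with exoCDN2 (19.2% of all genes were called, 11.8% lower). Fcgr3 differed by -1.90 ± 0.54 (edgeR adjusted p = 0.019) and Fcgr2b by -1.0 ± 0.36 (adjusted p = 0.044), and both genes had no overlap between the pairs. Fcgr1 (-0.63, 95% interval -1.41 to 0.16) and Fcgr4 (-0.61, 95% interval -1.59 to 0.36) were not called, nor were Fcer1g (-1.33 ± 0.49, adjusted p = 0.053, called by DESeq2 at -1.40 with an adjusted p of 0.017), Tyrobp (-0.96 ± 0.48) and Syk (-0.82 ± 0.36). These intervals leave room for differences of more than 2-fold.

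This contrast depended on single libraries of both treatments. CDN2 (20 µg) replicate 1 of 2 doses held the highest level of all 7 genes and the smallest total of expected counts, 21608895, and 27.4% of its genes were more than 2-fold from its partner, against 4.02% to 12.2% in the other pairs. Without it none of the 7 genes was called, the difference of Fcgr3 was -0.62 (adjusted p = 0.40) and that of Fcgr1 turned to 0.03. Without exoCDN2 replicate 2 none was called either (adjusted p = 0.14 for Fcgr3 and 0.28 for Fcgr2b), without exoCDN2 replicate 1 only Fcgr3 was (adjusted p = 0.058 for Fcgr2b), and without CDN2 replicate 2 there were 6 calls. A fit of these 4 tumors alone called none, although the differences stayed about as large, at -1.93 for Fcgr3 (edgeR adjusted p = 0.16) and -1.03 for Fcgr2b (adjusted p = 0.19).

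Free CDN2 at 100 µg and 20 µg was compared after 1 dose. None of the 7 genes was called (0.491% of all genes were). Fcgr1 was at 2.76 and 4.17 CPM per kb with 100 µg and 4.81 and 7.20 with 20 µg, and Fcgr4 at 14.9 and 16.1 against 19.0 and 42.8, so the higher amount gave the lower pair in both. The log2 difference was -0.79 for Fcgr1 (95% interval -1.60 to 0.02) and -0.99 for Fcgr4 (95% interval -1.98 to -0.01, edgeR adjusted p = 0.36). For Fcgr4 it was -0.30 without CDN2 (20 µg) replicate 2 and -1.47 without replicate 1. Between exoCDN2 and unloaded EVs after 1 dose none of the 7 was called (2.92% of all genes were), and the largest difference was that of Fcgr4, 1.35 ± 0.47 (edgeR adjusted p = 0.18, or a difference of 1.98 without EV replicate 2 and 0.91 without EV replicate 1).

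The pair given 2 doses of CDN2 in an amount the labels do not state lay between PBS and the 20 µg group in 6 of the 7 genes, while Syk overlapped with PBS. None of the 7 genes was called against PBS by edgeR (0.959% of all genes were). DESeq2 called 2, Fcgr1 and Fcgr4, and the share of all genes that it called is not given here. At an unadjusted edgeR p under 0.05 there were 4 of the 7, against 1787 of the 17110 genes tested. Fcgr4 was measured at 10.2 and 19.7 CPM per kb and Fcgr1 at 4.40 and 6.47, above both PBS tumors of 2 doses and overlapping with the PBS tumors of 1 dose. Trim21 was at 5.69 and 5.70 in this pair, 1.76 and 2.10 with 2 doses of PBS and 12.4 and 16.1 with 2 doses of exoCDN2.

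To set activating against inhibitory receptors, the level of each activating receptor was divided by that of Fcgr2b in every tumor, and the log2 ratios of the 12 agonist-treated tumors were compared with those of the 6 PBS or EV tumors by a two-sided exact permutation test within each number of doses (5880 permutations, 3 ratios adjusted together). Single tumors were permuted, although they came in pairs given the same treatment. The test thus takes the tumors of a pair as separate units. The ratio of Fcgr4 to Fcgr2b was higher in the agonist-treated tumors, with a mean difference of 1.36 (exact permutation p = 0.00085, adjusted p = 0.0026). Its mean with agonist was 2.39 after 1 dose and 2.21 after 2 doses. In the control tumors the mean was 1.23 and 0.59. For Fcgr1 the ratio rose by 0.94 (exact permutation p = 0.018, adjusted p = 0.027), a call that was lost in 7 of the 18 fits that left out 1 tumor (unloaded EV replicate 2 or any of the 2-dose PBS, exoCDN2 and CDN2 (20 µg) tumors, adjusted p up to 0.069), and for Fcgr3 the difference was 0.23 (exact permutation p = 0.32). Split by number of doses, the Fcgr1 difference was 0.18 after 1 dose (exact permutation p = 0.63) and 1.89 after 2 doses. The pooled rise of the Fcgr1 ratio therefore does not describe the tumors of 1 dose. The gene lengths cancel in all of these differences.

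**Figure D3:**
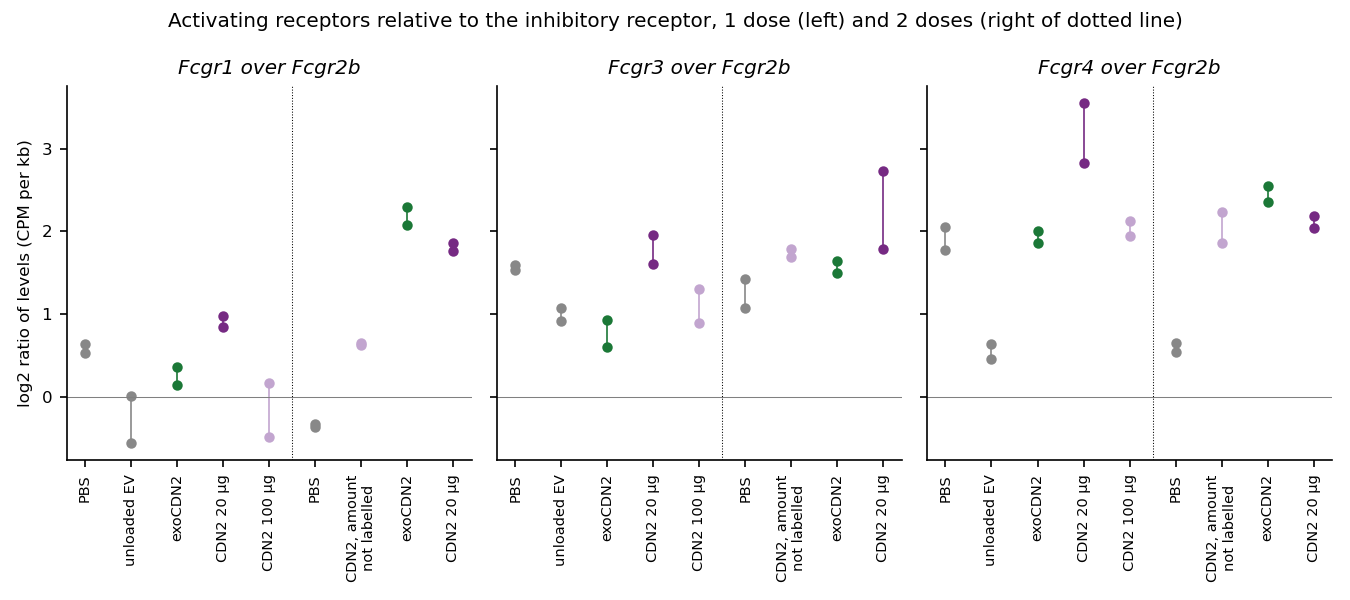
Log2 ratio of the level of Fcgr1, Fcgr3 or Fcgr4 to that of Fcgr2b, with 1 point per tumor and 2 tumors per group. After 2 doses the PBS tumors have the lowest Fcgr1 and Fcgr4 ratios, and after 1 dose the highest Fcgr4 ratios are those of CDN2 (20 µg), at 2.82 and 3.55.

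After 2 doses the log2 ratio of Fcgr1 to Fcgr2b was -0.36 and -0.32 with PBS, 2.08 and 2.29 with exoCDN2, 1.76 and 1.86 with CDN2 (20 µg) and 0.63 and 0.65 with CDN2 of unlabelled amount. That of Fcgr4 was 0.54 and 0.65 with PBS and between 1.86 and 2.55 in all 6 agonist-treated tumors. The PBS tumors of 1 dose, at 1.78 and 2.05, overlapped with this Fcgr4 range. Within 2 doses neither ratio overlapped between PBS and treated tumors (differences of 1.89 and 1.62, exact permutation p = 0.036 for each, not adjusted over the 3 ratios and the smallest that 28 permutations allow). Fcgr3 to Fcgr2b ran from 1.08 to 1.42 with PBS and from 1.5 to 2.73 with agonist, where the top value was again CDN2 replicate 1.

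After 1 dose the Fcgr1 and Fcgr3 ratios differed by 0.18 and -0.06 between agonist and control tumors (exact permutation p = 0.63 and 0.81), with overlap. The difference in the Fcgr4 ratio was 1.15 (exact permutation p = 0.033, not adjusted over the 3 ratios), also with overlap, and the kinds of control differed. The Fcgr4 ratio was 1.78 and 2.05 with PBS but 0.46 and 0.64 with unloaded EVs, and it was 1.86 and 2.01 with exoCDN2, 1.95 and 2.12 with CDN2 (100 µg) and 2.82 and 3.55 with CDN2 (20 µg). Against PBS the exoCDN2 and CDN2 (100 µg) ratios therefore overlapped or lay close by. With PBS tumors alone as controls over both dose numbers, the difference was 1.04 for Fcgr4 (exact permutation, adjusted p = 0.023) and 0.82 for Fcgr1 (adjusted p = 0.13), so the call for Fcgr1 was lost.

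After 2 doses the markers of leukocytes rose in the same tumors as the 7 genes. Of all genes tested, 8.83% were called higher with exoCDN2 and 19.9% with CDN2 (20 µg) in these comparisons. The summed level of the 4 pan-leukocyte markers Ptprc, Spi1, Cd53 and Laptm5 was 12.1 and 14.1 CPM per kb with 2 doses of PBS, 62.1 and 105 with exoCDN2 and 77.4 and 231 with CDN2 (20 µg), and all 4 were called higher in both. The 5 monocyte markers were all called higher too, with a sum of 5.09 and 6.28 with PBS, 128 and 236 with exoCDN2 and 248 and 921 with CDN2. Of the 7 neutrophil markers 5 were called higher with exoCDN2 and 7 with CDN2, with a sum of 15.9 and 74.7 in the former, 306 and 1373 in the latter and 0.923 and 1.58 with PBS. One of these markers, Ly6g, was at 3 counts or fewer in the exoCDN2 and PBS groups, so the exoCDN2 sum rests on the other markers. Macrophage markers moved less: of 8, 2 rose with exoCDN2, while with CDN2 5 rose and 1, Mrc1, fell. The macrophage sum was 116 and 120 with PBS, 224 and 327 with exoCDN2 and 296 and 386 with CDN2.

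After 1 dose, when none of the 7 genes was called, the neutrophil sum was 5.28 and 6.01 with PBS, 53.4 and 83.8 with exoCDN2 and 16.8 and 41.7 with CDN2 (20 µg), with 3 and 2 of the 7 markers called higher. Of the monocyte markers 2 were called higher with 1 dose of exoCDN2, and 1 was called higher and 1 lower with CDN2 (100 µg), where 3 of the 4 T cell markers were also lower. In these comparisons no pan-leukocyte or macrophage marker was called higher. Of all genes tested, 2.81% were called with exoCDN2, 3.26% with CDN2 (20 µg) and 2.50% with CDN2 (100 µg), in either direction.

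Other cell types could also hold Fc receptors. Their markers are given after 2 doses, where 8.83% of all genes were called higher with exoCDN2 and 19.9% with CDN2 (20 µg). The 4 NK cell markers were all called higher with exoCDN2 (sum 3.69 and 5.14 CPM per kb, against 0.241 and 0.433 with PBS) and 2 of 4 with CDN2. Of the 4 mast cell markers 3 rose with CDN2 and none with exoCDN2, with a sum of 16.1 and 41.2 against 3.50 and 5.13 with PBS. Of the 4 B cell markers 2 could be tested and none was called, the defining marker Ms4a1 was at 3 counts or fewer in 4 of the 9 groups, and the summed level was at most 1.21 in any tumor. Of 4 T cell markers 3 were called higher with either treatment, and of 4 dendritic cell markers none was called with exoCDN2 and 1 was lower with CDN2. The 6 melanocyte markers, which identify the tumor cells, summed to 7316 and 7534 with PBS, 4744 and 5048 with exoCDN2 and 2273 and 4085 with CDN2. The part of each cell type in the receptor levels was not tested.

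**Figure D4:**
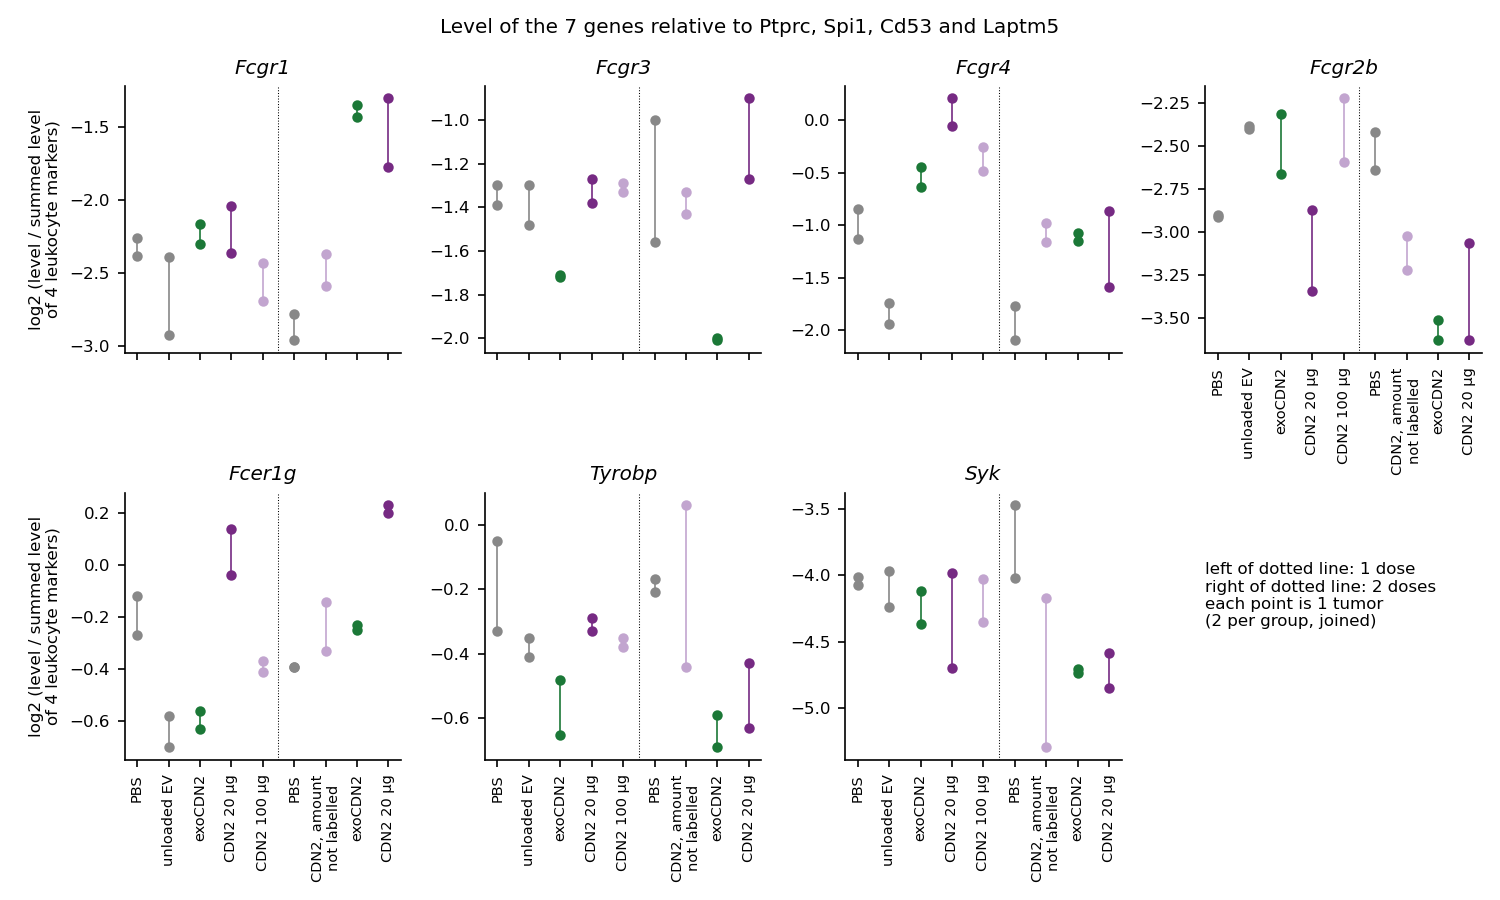
Level of each gene divided by the summed level of 4 leukocyte markers in the same tumor (log2), with 1 point per tumor and 2 tumors per group. After 2 doses of exoCDN2 or CDN2 (20 µg) Fcgr1 and Fcgr4 lie above the PBS tumors of 2 doses, and Fcgr2b, Tyrobp and Syk lie below them.

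Relative to the pan-leukocyte sum the 7 genes did not move together, and the direction depended on the marker list used as the denominator. After 2 doses the log2 ratio of Fcgr1 to this sum was -2.96 and -2.78 with PBS, -1.43 and -1.35 with exoCDN2 and -1.77 and -1.30 with CDN2 (20 µg). Fcgr4 stood at -2.10 and -1.77 with PBS, -1.15 and -1.08 with exoCDN2 and -1.59 and -0.87 with CDN2, so both receptors were higher relative to these 4 markers in the treated tumors. Fcgr2b was lower, at -2.64 and -2.42 with PBS, -3.63 and -3.51 with exoCDN2 and -3.63 and -3.06 with CDN2. Fcgr3 was at -2.01 in the lower exoCDN2 tumor, below both PBS tumors (-1.56 in the lower), and at -1.27 and -0.90 with CDN2. On this scale Syk and Tyrobp were lower with both treatments, and Fcer1g was at -0.39 in both PBS tumors, -0.25 and -0.23 with exoCDN2 and 0.20 and 0.23 with CDN2. Relative to the macrophage sum, the higher PBS tumor was below the lower treated tumor for all 7 genes, also for Fcgr2b (-5.90 and -5.50 with PBS, -5.36 and -5.27 with exoCDN2, -4.99 and -4.37 with CDN2). Relative to the monocyte sum all 7 were lower in the treated tumors, also Fcgr1 (-1.71 and -1.61 with PBS, -2.51 and -2.47 with exoCDN2, -3.76 and -2.98 with CDN2) and Fcgr4 (-0.85 and -0.60 with PBS, -2.24 and -2.19 with exoCDN2, -3.58 and -2.55 with CDN2). Relative to the neutrophil sum all 7 were lower with CDN2 than with PBS, and with exoCDN2 6 were lower while Fcgr1 overlapped with PBS (0.38 and 0.75 with PBS, -0.85 and 0.53 with exoCDN2, -4.34 and -3.28 with CDN2). These ratios are a description of 2 tumors per group and were not tested.

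The wider pathway was described with 88 genes in 7 lists, of which 78 passed the filter. After 2 doses 52 of the 78 were called higher and none lower with exoCDN2, and 53 higher and none lower with CDN2 (20 µg), where 8.83% and 19.9% of all genes tested were called higher. Their median log2 difference was 2.06 and 2.05, against 0.01 and 0.00 over all genes tested. Without PBS replicate 2 of 2 doses 34 of 79 genes were called higher with exoCDN2 and 46 with CDN2. Without CDN2 replicate 1 there were 47 with CDN2. After 1 dose the calls were 2 higher and 3 lower with exoCDN2, 1 and 1 with CDN2 (20 µg) and 1 and 4 with CDN2 (100 µg), where 2.81%, 3.26% and 2.50% of all genes were called.

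Kinases and adaptors that carry the signal from the ITAM were called higher in 13 of 18 with exoCDN2 and 12 of 18 with CDN2, against 8.83% and 19.9% of all genes. Lcp2, encoding the adaptor SLP-76, rose by 3.61 and 3.41 on the log2 scale (edgeR adjusted p = 1e-05 and 1.3e-05), and Pik3ap1, encoding the PI3K adaptor BCAP, by 3.72 and 3.58. The phagocytic cup and oxidase list had 14 of 17 genes called higher with exoCDN2 and 13 of 17 with CDN2, against the same shares of all genes. In it Ncf4, encoding a subunit of the NADPH oxidase, rose by 2.74 and 3.92 (the latter 3.14 without CDN2 replicate 1), Itgb2, the common beta chain of leukocyte integrins, by 2.62 and 2.05, and Myo1f, a leukocyte myosin, by 2.79 and 1.80.

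Of the 10 inhibitory phosphatases and adaptors 6 were called higher with exoCDN2 and 5 with CDN2, against 8.83% and 19.9% of all genes, and 2 and 3 had log2 differences below 0. Inpp5d, which encodes SHIP1, the phosphatase recruited by FcγRIIB, was at 0.613 and 0.626 CPM per kb with PBS, 2.29 and 4.01 with exoCDN2 and 2.04 and 2.68 with CDN2 (log2 differences 2.35 ± 0.37 and 1.92 ± 0.37, edgeR adjusted p = 0.00072 and 0.0011). Ptpn22, a tyrosine phosphatase of leukocytes, rose by 4.34 (4.94 without PBS replicate 1) and 3.17. Dok3, an adaptor of inhibitory signals, rose by 2.21 and 3.52, the former not called without exoCDN2 replicate 1 or PBS replicate 2 and the latter 2.49 without CDN2 replicate 1. Of 11 ITIM receptors 8 rose with exoCDN2 and 9 with CDN2, with Cd300lf at 4.49 and 6.29, Pilra at 3.84 and 4.44 and Pirb at 3.07 and 3.14 on the log2 scale. Without CDN2 replicate 1 the CDN2 value was 5.12 for Cd300lf and 3.74 for Pilra, and without CDN2 replicate 2 that of Cd300lf was 6.90.

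After 1 dose of exoCDN2, 2 of these ITIM receptors fell, the collagen receptor Lair1 (0.559 and 0.734 CPM per kb with PBS, 0.0849 and 0.114 with exoCDN2, log2 difference -2.70 ± 0.61, edgeR adjusted p = 0.026) and Cd300a (-1.65 ± 0.40, adjusted p = 0.04). Cd300lb, which signals through DAP12, fell as well (-1.68 ± 0.43, adjusted p = 0.047), and it was also called lower with CDN2 (20 µg) (-1.91 ± 0.44, adjusted p = 0.024). None of these 1-dose calls held when any 1 of the tumors compared was left out, although the log2 differences stayed below 0. They ran from -2.92 to -2.49 for Lair1 and from -1.98 to -1.20 for Cd300a. For Cd300lb they ran from -2.11 to -1.36 with exoCDN2 and from -2.29 to -1.58 with CDN2 (20 µg). After 2 doses of exoCDN2 the same 3 genes were called higher than PBS, Lair1 by 3.30, Cd300a by 2.00 and Cd300lb by 1.30. Lair1 was at 2.63 without PBS replicate 2 and at 4.59 without PBS replicate 1, called in both. The call for Cd300lb was lost without exoCDN2 replicate 1 (0.75, adjusted p = 0.5) or either PBS tumor and that for Cd300a without PBS replicate 2 (adjusted p = 0.06).

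Receptors that share the ITAM adaptors with the activating Fc receptors were called higher in 9 of 12 with exoCDN2 and 11 of 12 with CDN2, against 8.83% and 19.9% of all genes. Clec4e (Mincle), which pairs with the Fc receptor gamma chain, was at 0.101 and 0.201 CPM per kb with PBS, 3.17 and 6.23 with exoCDN2 and 7.86 and 33.9 with CDN2, and it was among the few called after 1 dose of exoCDN2 (log2 difference 3.61 ± 0.77, edgeR adjusted p = 0.017, lost without exoCDN2 replicate 1 or either PBS tumor). Its partner Clec4d rose by 3.31 and 5.93, the former not called without PBS replicate 2 (adjusted p = 0.051) and 2.68 without exoCDN2 replicate 1. With CDN2 it was 4.49 without CDN2 replicate 1 and 6.61 without replicate 2, still called. Trem1, a DAP12-coupled receptor of neutrophils and monocytes, had 0 and 9 expected counts in the PBS tumors, 74 and 178 with exoCDN2 and 425 and 1063 with CDN2 and was called in both (with exoCDN2 not without exoCDN2 replicate 1 or PBS replicate 2). Between exoCDN2 and CDN2 after 2 doses, 5 of these 12 were lower with exoCDN2 and none higher. Over all lists that contrast held 7 genes higher and 10 lower, against 19.2% of all genes called (11.8% lower), and 0 and 0 without CDN2 replicate 1.

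**Figure D5:**
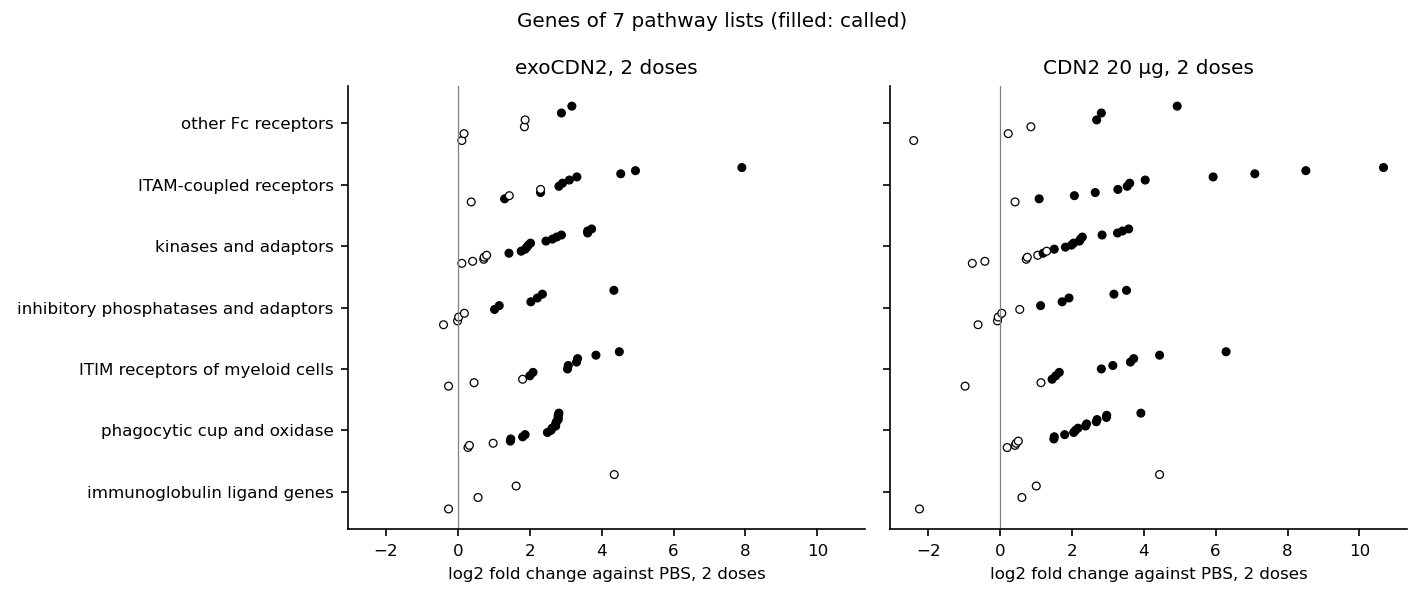
Log2 fold change against PBS after 2 doses for each tested gene of the 7 pathway lists, with exoCDN2 on the left and CDN2 (20 µg) on the right; filled points were called. The lists of activating and inhibitory parts both hold filled points to the right of 0, and the immunoglobulin genes hold none.

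Among the other Fc receptors, 6 of 11 could be tested. Trim21 was called higher with both treatments after 2 doses as after 1 (2.88 and 2.69), Fcrlb was called in both from 3 and 4 expected counts with PBS to between 31 and 60 in treated tumors (with exoCDN2 not without replicate 1 or either PBS tumor, largest adjusted p 0.18), and Fcer1a, the IgE-binding chain, had log2 differences of 1.87 with exoCDN2 (edgeR adjusted p = 0.13) and 2.82 with CDN2 (adjusted p = 0.011, or 0.098 without PBS replicate 1). Both values of Fcer1a moved with the PBS tumor left out, from 1.17 (without replicate 1) to 3.19 (without replicate 2) with exoCDN2 and from 2.10 to 4.13 with CDN2. The genes of the ligand itself were barely detected: Ighg1, Ighg2b, Ighg2c and Ighg3 had at most 16 expected counts in any of the 18 tumors, Ighm had 28 to 354, and of the 4 immunoglobulin genes tested none was called.

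The 7 genes also differed in which genes they followed most closely over the 18 tumors. These correlations of log2 CPM are a description, since the tumors share treatments and libraries. Fcgr1 was most like Il2rg (r = 0.987), Ly6e (0.986) and Ly6a (0.985), Fcgr4 most like Lag3 (0.979), Hk3 (0.968) and AW112010 (0.968), and Fcgr3 most like Ctsh (0.986), Pak1 (0.980) and Fcer1g (0.973). For Fcgr2b, Ifi27l2a (0.966) and Serping1 (0.964) were among the 3 nearest. Fcer1g and Tyrobp were each other's close neighbours (0.988), together with Lst1 and Cd52, and Syk was nearest to Gpat3 (0.968), Alox5ap (0.964) and Emilin2 (0.963). Among the 7 themselves r was lowest between Fcgr4 and Syk (0.747).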

How the data were processed

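RNA from 18 whole tumors was sequenced as paired reads. After quality filtering, the authors mapped reads to mouse GRCm38 (OSA, run within OmicSoft ArraySuite), and RSEM with an Ensembl gene model gave the expected counts per gene and tumor that they deposited, without normalization (RSEM and the build also stand in the submitters' processing notes). Totals were 21608895 to 65983630 per tumor, and 8.75% to 12.7% of the values were not whole. They were rounded and fitted with edgeR 4.0.16 in R 4.3.3: filterByExpr with a minimum count of 10, TMM factors, and 1 quasi-likelihood model of the 9 groups over all 18 tumors (9 residual degrees of freedom, biological coefficient of variation 0.23). The study's methods name DESeq2, which was run as an alternative (1.42.0). In each of 14 comparisons the Benjamini-Hochberg adjustment ran over all 17110 genes tested.

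Tumors of a group are biological replicates by the study's methods, and the edgeR p-values measure the spread between them. The 7 genes, the lists and the tests were chosen with earlier results of these data known, so the counts of a list describe it and are not independent support. Named were the 7 genes, at most 3 genes each way per pathway list with the smallest p among those called in exoCDN2 or CDN2 (20 µg) against PBS, the 3 genes most correlated with each of the 7, and marker genes. Symbols and exon lengths came from GENCODE M21 (GRCm38) and promoters from RefSeq (GRCm38.p6). The number of tumors per group limits the precision, and the lowest expected count of the 7 genes in a tumor was 162. Shared reads were assigned by RSEM. The expected count of Fcgr2b was not whole in 13 of 18 tumors, and Fcgr3 and Fcgr2b share 44 windows of 100 bases (2.70% of those of Fcgr3 and 1.14% of those of Fcgr2b), so a small part of their counts is uncertain. The procedure was also run on simulated data, the outcome of which is not given here, so no result rests on it. Alternatives were DESeq2, RLE factors, no filter on low counts, only the groups compared, 16 tumors, PBS tumors pooled, no limit on the ratio, the replicate number as a block and each tumor left out. A few genes that the naming rule covers are not reported here.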

Additional observations from a re-analysis of the deposited data

Results flagged for a closer look

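With 2 tumors per group, a wide spread within a pair does not show which of its tumors lies apart, so no single tumor was tested for this. The results that stood out were those in which the effect of a treatment against PBS differed between 1 and 2 doses by a test of that difference (edgeR, adjusted over all genes). For exoCDN2 the log2 effect was greater after 2 doses by 4.14 for Fcgr1, 3.29 for Fcer1g, 3.12 for Fcgr4, 2.67 for Tyrobp and 1.95 for Syk. For CDN2 (20 µg) it was greater by 4.52 for Fcgr1, 3.68 for Fcer1g, 3.61 for Fcgr3, 3.11 for Tyrobp, 2.81 for Fcgr4, 2.68 for Syk and 2.67 for Fcgr2b. Without CDN2 replicate 1 of 2 doses these values were 3.83 for Fcgr1, 2.69 for Fcer1g, 2.30 for Fcgr3, 2.23 for Tyrobp, 2.05 for Fcgr2b and 1.86 for Syk, and without replicate 2 that of Fcgr3 was 4.25. Without CDN2 replicate 2 of 1 dose they were 3.48 for Fcgr4 and 4.30 for Fcer1g. In the same tests 6.69% and 15.7% of all genes were called. The PBS tumors of 2 doses were below those of 1 dose in all 7 genes. Their log2 differences ran from -0.53 for Fcgr2b to -1.86 for Fcgr4, with -1.47 for Fcgr1. By construction this drop in PBS enters each of the differences above, at the same size for exoCDN2 and CDN2. For Fcgr4 the -1.86 stands beside differences of 3.12 and 2.81, and for Fcgr1 the -1.47 beside 4.14 and 4.52.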

How the results depend on the processing

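The 7 calls with 2 doses of CDN2 (20 µg) against PBS held under all settings tried, and those with exoCDN2 held in 6 or 7 genes with all tumors in the fit. Leaving out 1 tumor at a time gave 3 to 7 calls for 2 doses of exoCDN2 against PBS (3 without exoCDN2 replicate 1), 0 to 2 for CDN2 of unlabelled amount, 0 to 6 for exoCDN2 against CDN2 after 2 doses (0 without CDN2 replicate 1) and 1 to 5 for exoCDN2 after 2 doses against 1 relative to PBS. In these fits the lone tumor of a group is assumed to vary like the others. Between exoCDN2 and CDN2 the difference of Fcgr1 ran from -1.09 to 0.03 after 2 doses and from -0.50 to 0.07 after 1 dose. When only these groups were fitted 0 genes were called, with Fcgr3 still at -1.93 after 2 doses. Without a filter on low counts, calls went from 0 to 1 for CDN2 (20 µg) against PBS, for CDN2 (100 µg) against 20 µg and for exoCDN2 against unloaded EVs after 1 dose, to 5 for CDN2 of unlabelled amount and to 3 for PBS after 2 doses against 1. For the last 2 comparisons, fitting only the groups compared and DESeq2 each gave 2 calls. With the 4 PBS tumors pooled there was 1 call for CDN2 (20 µg) after 1 dose, and the difference of Syk with CDN2 of unlabelled amount turned to -0.15. Of 784 fold changes of named genes under other settings, not counting fits without 1 tumor, 740 kept their direction and side of the threshold, 30 passed it only there (Fcer1g between exoCDN2 and CDN2 after 2 doses with RLE factors, no filter, 16 tumors and DESeq2 among them), 13 lost it (Fcgr2b in that contrast at -0.93 without a filter among them) and 1, that of Syk, reversed. The cause of these shifts was not tested. The difference in the ratio of Fcgr1 to Fcgr2b was 0.82 with PBS tumors only as controls (adjusted p = 0.13) and ran from 0.82 to 1.07 when 1 tumor was left out, with a largest adjusted p of 0.069 (exact permutation), while that of Fcgr4 ran from 1.23 to 1.51 with adjusted p of at most 0.01. The effect of depth was not tested, and the library with the smallest total is CDN2 replicate 1 of 2 doses.

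Replicate numbers 1 and 2 recur in all groups, and nothing in the labels says that they pair tumors. Deviations of same-numbered tumors correlated by -0.18 to 0.32 between groups (mean 0.014). With the replicate number as a block, 1 gene in place of 2 was called between exoCDN2 and CDN2 after 2 doses (Fcgr3, with Fcgr2b at an adjusted p of 0.055 by edgeR), and the ratio differences stayed at 0.94 for Fcgr1 (adjusted p = 0.043, exact permutation) and 1.36 for Fcgr4 (adjusted p = 0.0056). The block changed no other count of calls among the 7 genes.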
